A study of Mus musculus with 6 samples.

Results

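The purine salvage and adenosine enzymes recover purine bases and nucleosides, deaminate AMP and adenosine, degrade extracellular ATP and carry out the last oxidation to uric acid. The 10 genes Ampd2, Ampd3, Ada, Hprt, Aprt, Adk, Pnp, Nt5e, Entpd1 and Xdh were taken by symbol from the 53700 listed genes, and each symbol named 1 identifier, for the 5 that changed ENSMUSG00000005686 (Ampd3), ENSMUSG00000017697 (Ada), ENSMUSG00000024066 (Xdh), ENSMUSG00000006589 (Aprt) and ENSMUSG00000025630 (Hprt). Expression was compared between 3 pLV-Control libraries and 3 pLV-SEMA6A libraries of SL4, a luciferase-expressing mouse line described as colorectal cancer cells. The pLV-SEMA6A cells were SL4 cells that stably overexpressed SEMA6A, a transmembrane semaphorin, from a lentivirus, and the control cells were SL4 cells without that overexpression. The labels do not say whether the control cells carried an empty vector, and no source used here describes more than 1 overexpressing line. SEMA6A itself and any other difference between the 2 cell populations therefore cannot be told apart. Nothing states that the libraries came from separate cultures, so p-values measure only the spread between these libraries, which may be technical.

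Cells can build purines from small precursors or salvage them. In salvage, a phosphoribosyl group from PRPP is joined to a free base by APRT or HPRT, or adenosine is phosphorylated by ADK. AMP deaminase and adenosine deaminase move adenine compounds towards IMP and inosine, PNP releases the base, and xanthine dehydrogenase forms uric acid. At the cell surface, CD39 and CD73 convert ATP to adenosine, a nucleoside known for damping T cell responses in tumors.

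Values were TPM, a unit scaled for transcript length and to a fixed total per library, which keeps no read depth, so no detection limit could be derived. Sema6a was listed at 0 in all pLV-Control libraries and reached 98.7, 118 and 112 TPM after overexpression. The 8 epithelial markers Epcam, Cdh1, Krt8, Krt18, Krt19, Krt20, Vil1 and Cdx2 did not exceed 0.39 TPM in any library, so the epithelial identity given by the line's description was not visible in these RNA levels. Of 6 leukocyte markers, 4 were listed at 0 throughout, and Cd68 alone reached 1 TPM. Of 4 fibroblast markers, Col1a1 and Col3a1 were higher and Pdgfra and Pdgfrb lower in pLV-SEMA6A, each by more than 0.5 on the log2 scale with an adjusted p under 0.05 (limma). Their summed level, carried almost wholly by Col3a1, was 123 to 138 TPM in pLV-Control and 179 to 187 TPM in pLV-SEMA6A, and its part in the results below was not tested.

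The comparison used limma on log2(TPM + 1), a scale that understates the change of low genes, over the 12510 genes averaging 1 TPM or more. A gene passed the test at a Benjamini-Hochberg adjusted p under 0.05, and was a differentially expressed gene (DEG) if its absolute log2 fold change also exceeded 0.5. Among all genes tested, 47.6% passed, with 19.5% higher and 28.2% lower in pLV-SEMA6A, and 15.9% were DEGs, with 5.12% upregulated and 10.8% downregulated. With each library centred on its median, the DEGs changed from 640 upregulated and 1347 downregulated to 1002 upregulated and 961 downregulated.

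Of the 10 enzymes, 8 were tested, and Nt5e and Entpd1 were below the filter. Ampd3, Ada and Xdh fell, Aprt and Hprt rose, and Ampd2, Adk and Pnp did not pass. These 5 of 8 stood against 47.6% of all genes. Only Ampd3 and Ada were DEGs, 2 of 8 against 15.9% of all genes, and 0 were upregulated DEGs, with 2 higher at an unadjusted p under 0.05 from limma. The libraries of the groups did not overlap for 5 of the 8, and for 58.5% of all genes. The median log2 fold change of the 8 was 0.07, beside −0.06 for all genes tested.

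**Figure D1:**
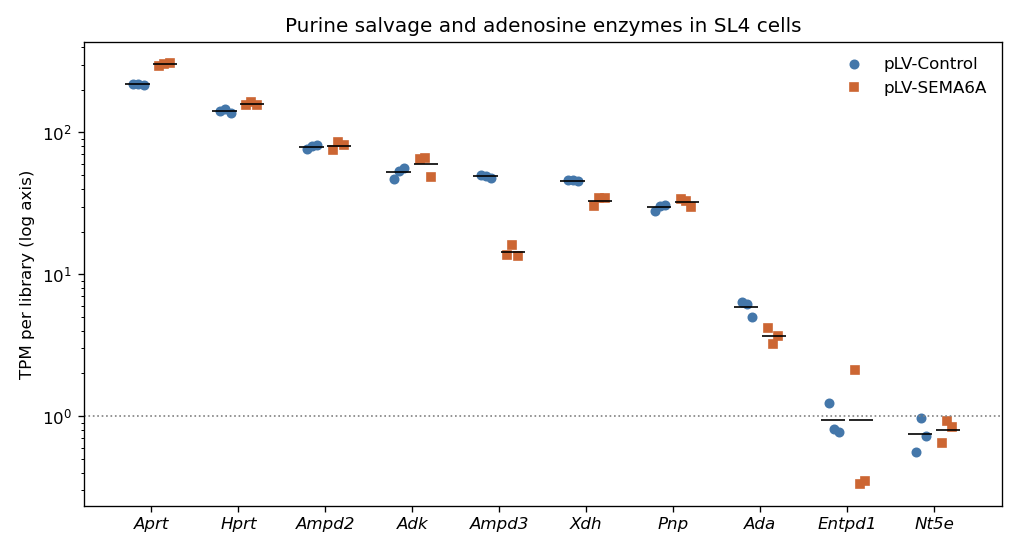
TPM of the 10 enzymes on a log axis, with 1 symbol per library, 3 pLV-Control libraries as circles and 3 pLV-SEMA6A libraries as squares, and a bar at each group mean. The dotted line marks 1 TPM, the mean a gene needed to be tested. The Ampd3 squares lie at 13.5 to 16.0 TPM and the circles at 47.95 to 50.1 TPM.

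Levels of the enzymes spanned a wide range. In pLV-Control the order by mean was Aprt at 218 TPM, Hprt at 142, Ampd2 at 79.4, Adk at 52.3, Ampd3 at 49.0, Xdh at 45.7, Pnp at 29.6, Ada at 5.84, Entpd1 at 0.94 and Nt5e at 0.75 TPM. The libraries of neighbours overlapped for Adk with Ampd3 and for Entpd1 with Nt5e, and lay apart for the other neighbours. In pLV-SEMA6A, Ampd3 stood in place 7 instead of 5, below Xdh and Pnp, whose libraries overlapped there. The 9 other enzymes kept their order relative to each other. The summed TPM of the 10 was 623 ± 6.45 (SD, n = 3) in pLV-Control and 685 ± 18.3 (SD, n = 3) in pLV-SEMA6A, most of it Aprt and Hprt.

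The largest change among the enzymes was in Ampd3, the AMP deaminase first known from red blood cells, which converts AMP to IMP. Its TPM was 50.1, 48.9 and 47.95 in pLV-Control and 13.7, 16.0 and 13.5 in pLV-SEMA6A. Every pLV-SEMA6A library lay far below every pLV-Control library. The mean was 3.40-fold lower, with a log2 fold change of −1.70 (standard error, SE, 0.07, 95% interval −1.87 to −1.53, limma adjusted p = 1.1e-05). Leaving out each library in turn kept the log2 fold change between −1.78 and −1.66. In bulk RNA, fewer cells that express a gene and less RNA per cell cannot be told apart. The transcripts of Ampd3 share 5.98% of their 31-base stretches with other genes, 3.04% with Rnf141.

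Ampd2, the AMP deaminase that many tissues share, did not pass. It measured 76.4, 80.5 and 81.1 TPM in the control libraries and 74.6, 85.1 and 81.5 TPM with SEMA6A, so that the groups overlapped widely. Its log2 fold change was 0.02, with a 95% interval of −0.11 to 0.15 (limma adjusted p = 0.813). The muscle form Ampd1 was below the filter, at 0.28 to 1.40 TPM in pLV-Control and 0 to 0.24 TPM in pLV-SEMA6A. Of the summed Ampd2 and Ampd3 TPM, Ampd3 made up 39.6%, 37.8% and 37.2% in the pLV-Control libraries and 15.5%, 15.9% and 14.2% in the pLV-SEMA6A libraries. The sum itself went from 128 ± 1.57 to 94.8 ± 6.42 TPM (SD, n = 3 per group). The libraries did not overlap in either measure, and an exact permutation test, two-sided, gave p = 0.1 for each, the smallest that 3 libraries against 3 allow. Each measure is made from the TPM given above, so it is not separate support.

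**Figure D2:**
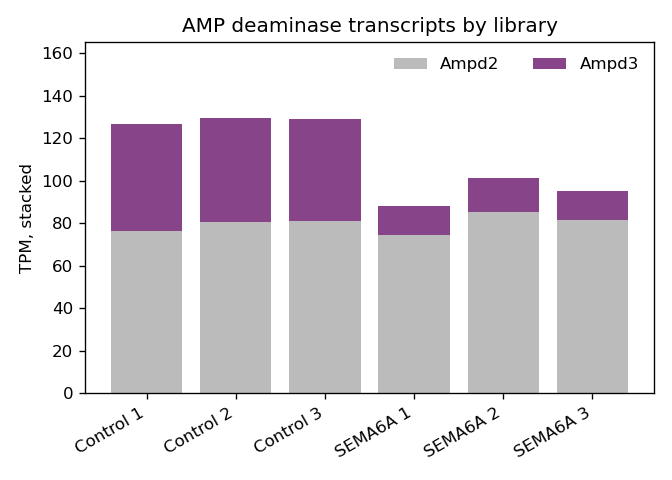
Stacked TPM of Ampd2 and Ampd3 in each of the 6 libraries, as bars from 0. Ampd2 is of similar height in every bar, at 74.6 to 85.1 TPM, while the Ampd3 part is 47.95 TPM or more in pLV-Control and 16.0 TPM or less in pLV-SEMA6A.

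Ada, which deaminates adenosine to inosine, was low in all libraries. It measured 6.35, 6.18 and 5.0 TPM in the control libraries and 4.15, 3.24 and 3.66 TPM with SEMA6A. The groups did not overlap, but the gap between them was smaller than the range within either. The log2 fold change was −0.55 (SE 0.12, 95% interval −0.84 to −0.25, limma adjusted p = 0.0109). It was −0.49 without pLV-Control replicate 1, −0.48 without pLV-SEMA6A replicate 2 and −0.45 with centring on library medians, so that Ada was no longer a DEG in these fits, although its adjusted p stayed under 0.05 in each.

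Adk, the kinase that turns adenosine back into AMP and so draws on the same substrate as Ada, did not pass. It measured 47.3, 53.6 and 55.9 TPM in the control libraries and 64.9, 65.9 and 48.8 TPM with SEMA6A. Replicate 3 of pLV-SEMA6A lay within the pLV-Control range and the other pLV-SEMA6A libraries above it. The log2 fold change was 0.18, with a 95% interval of −0.12 to 0.49 (limma adjusted p = 0.274). Without pLV-SEMA6A replicate 3 it was 0.32 (limma adjusted p = 0.0226), so this 1 library decided the call. The ratio of Adk to Ada TPM was 7.44, 8.67 and 11.2 in pLV-Control and 15.6, 20.3 and 13.3 in pLV-SEMA6A, without overlap (exact permutation test, two-sided, p = 0.1). It is made from the TPM already given and is not separate support.

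Aprt, which salvages adenine, was the most abundant of the enzymes. Its TPM was 219.6, 218 and 217 in pLV-Control and 294, 304 and 306 in pLV-SEMA6A. Each group was tight, and the groups lay well apart. The mean rose by 38.2%, a log2 fold change of 0.47 (SE 0.02, 95% interval 0.41 to 0.52, limma adjusted p = 2.9e-05), just under the minimum for a DEG. It passed that minimum with centring on library medians, at 0.56. Hprt, which salvages hypoxanthine and guanine and is often used as a reference gene in qPCR, measured 142, 146 and 138 TPM in the control libraries and 156, 163 and 156 TPM with SEMA6A. Its rise was small, at 11.7% or a log2 fold change of 0.16 (SE 0.03, limma adjusted p = 0.00756). The ratio of Aprt to Hprt TPM went from 1.54 ± 0.04 to 1.90 ± 0.05 (SD, n = 3 per group), without overlap (exact permutation test, two-sided, p = 0.1). This ratio is made from the TPM already given and is not separate support.

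Pnp, which splits inosine and guanosine into base and ribose phosphate, did not pass. It measured 27.9, 30.2 and 30.6 TPM in the control libraries and 33.9, 33.0 and 29.6 TPM with SEMA6A. The groups overlapped only through pLV-SEMA6A replicate 3. The log2 fold change was 0.12, with a 95% interval of −0.04 to 0.27 (limma adjusted p = 0.187), and with centring on library medians it was 0.21 (limma adjusted p = 0.0336). Other genes hold 26.4% of the 31-base stretches of its transcripts, mainly Gm49342, which makes its value uncertain. The paralog Pnp2 was listed at 0 to 0.66 TPM.

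Xdh, which oxidises hypoxanthine and xanthine to uric acid, measured 46.2, 45.9 and 45.1 TPM in the control libraries and 30.2, 34.3 and 34.3 TPM with SEMA6A. Every pLV-SEMA6A library was lower than every pLV-Control library. The mean fell by 28.0%, a log2 fold change of −0.46 (SE 0.06, 95% interval −0.60 to −0.33, limma adjusted p = 0.000901), which did not reach the minimum for a DEG. Other genes hold 14.4% of the 31-base stretches of its transcripts.

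Among the 10 enzymes, those that lead to adenosine outside the cell, Entpd1 and Nt5e, averaged below 1 TPM in each group. Entpd1 encodes CD39, which removes phosphates from ATP and ADP, and measured 1.23, 0.81 and 0.77 TPM in the control libraries and 2.13, 0.33 and 0.35 TPM with SEMA6A. Replicate 1 of pLV-SEMA6A was the highest of the 6 libraries and the other pLV-SEMA6A libraries the lowest, and both group means were 0.94 TPM. Nt5e encodes CD73, which converts AMP to adenosine, and measured 0.56, 0.97 and 0.72 TPM in the control libraries and 0.65, 0.92 and 0.84 TPM with SEMA6A. Tested without the filter, neither passed, with a log2 fold change of −0.12 for Entpd1 (limma adjusted p = 0.849) and 0.05 for Nt5e (limma adjusted p = 0.819).

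**Figure D3:**
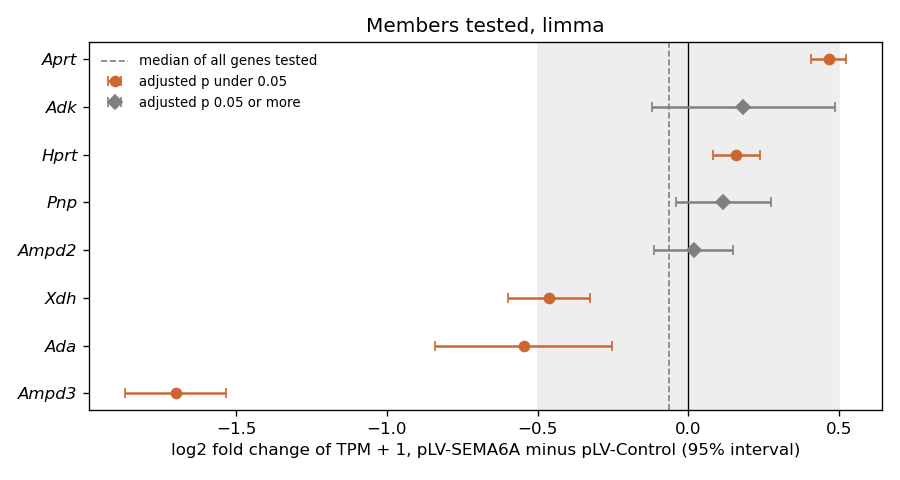
Log2 fold change of TPM + 1 (pLV-SEMA6A minus pLV-Control, 3 libraries each) with its 95% interval from limma for the 8 enzymes tested. The grey band marks changes under 0.5 and the dashed line the median of all genes tested. Ampd3 at −1.70 lies far outside the band, Ada at −0.55 just outside it, and Aprt at 0.47 and Xdh at −0.46 just inside.

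Promoter windows of the enzymes were read from the RefSeq table on GRCm38.p6, which holds 14 start sites of 9 of the 10 enzymes; the missing one is Xdh. The windows run from 250 bases before to 50 bases after a start. Capitals below mark 4 motifs on either strand, the interferon response element core (GAAA, 2 bases of any kind, GAAA), the STAT element TTCNNNGAA, the GC box GGGCGG and the CCAAT box. Shown, as examples of enzymes that fell and of the one that rose most, are the 250 bases before the start of Ampd3 (first of 3 listed starts, plus strand, chr7:110768372-110768621), Ada (minus strand, chr2:163750240-163750489) and Aprt (minus strand, chr8:122576908-122577157).
Ampd3: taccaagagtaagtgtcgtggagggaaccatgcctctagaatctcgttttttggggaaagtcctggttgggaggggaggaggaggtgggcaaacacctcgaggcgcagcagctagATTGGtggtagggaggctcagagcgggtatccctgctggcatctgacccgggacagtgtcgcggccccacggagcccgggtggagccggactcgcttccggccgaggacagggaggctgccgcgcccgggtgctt
Ada: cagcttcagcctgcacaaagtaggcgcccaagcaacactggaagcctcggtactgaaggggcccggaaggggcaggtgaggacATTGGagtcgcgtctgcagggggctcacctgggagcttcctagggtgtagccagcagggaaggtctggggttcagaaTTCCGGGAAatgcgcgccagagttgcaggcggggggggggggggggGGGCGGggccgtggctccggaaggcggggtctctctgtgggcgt
Aprt: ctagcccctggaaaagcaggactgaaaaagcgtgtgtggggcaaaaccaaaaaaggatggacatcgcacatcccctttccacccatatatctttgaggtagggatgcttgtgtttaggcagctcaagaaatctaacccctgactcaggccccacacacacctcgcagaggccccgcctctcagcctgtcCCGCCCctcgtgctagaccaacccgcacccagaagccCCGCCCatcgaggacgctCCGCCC

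The interferon response element core was in 0 of the 14 windows, and in 3.44% of all 32851 promoter windows of this length. The STAT element was in 1 of the 14, that of Ada, 90 to 82 bases before the start, and in 8.30% of all windows. GC boxes were in 9 of the 14 windows, of 7 enzymes, among them Aprt with 3 before its start, and in 35.7% of all windows. The Ampd2 windows overlap, and their GC boxes are the same bases counted in each window. CCAAT boxes were in 8 of the 14 windows, of 5 enzymes, Ampd3 and Ada among them, and in 37.4% of all windows. These matches are letters in a window, and nothing about binding was measured.

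Genes around the enzymes, mostly of purine metabolism, were followed with a hand-written list of 73 genes, of which 72 were listed and 47 tested. The list also holds genes outside purine metabolism, such as the thymidine kinases Tk1 and Tk2 and Enpp2, so its counts are not those of purine genes alone. Of the 47, 13 rose and 17 fell, which is 63.8% beside 47.6% of all genes tested, and 4 were upregulated and 4 downregulated DEGs, or 17.0% beside 15.9%. The median log2 fold change was −0.04. With centring on library medians, 8 were upregulated and 3 downregulated DEGs, and without pLV-SEMA6A replicate 3 the split was 2 and 6.

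The enzymes that interconvert IMP, AMP and GMP changed in part. Adenylosuccinate synthetase and lyase make AMP from IMP, the step opposite to AMP deaminase. Adsl, the lyase, measured 74.3, 73.7 and 71.8 TPM in the control libraries and 127, 125 and 132 TPM with SEMA6A, without overlap. It was an upregulated DEG, with a log2 fold change of 0.79 (SE 0.03, limma adjusted p = 1.1e-05). Adss, the main synthetase, rose from 74.3 ± 2.26 to 103 ± 1.73 TPM (SD, n = 3 per group), a log2 fold change of 0.47. This was under the minimum for a DEG, which Adss exceeded with centring (0.56) and with upper quartile scaling (0.503). The muscle form Adssl1 fell from 11.9 ± 0.61 to 9.33 ± 0.94 TPM (SD, n = 3 per group), and did not pass with the replicate number as a block (limma adjusted p = 0.0579) or with centring (limma adjusted p = 0.0662). The call of Adssl1 was also lost in 4 of the 6 fits lacking 1 library. The ratio of Adsl to Ampd3 TPM, computed after both values were seen, was 1.48 to 1.51 in pLV-Control and 7.77 to 9.72 in pLV-SEMA6A.

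On the guanine side, the reductases that return GMP to IMP fell. Gmpr2 measured 37.0, 40.7 and 39.3 TPM in the control libraries and 25.2, 25.6 and 27.4 TPM with SEMA6A, a log2 fold change of −0.56 (SE 0.05, limma adjusted p = 0.000305). Other genes, mainly the adjacent Tinf2, hold 39.5% of the 31-base stretches of its transcripts, which makes its value uncertain, and with centring its change was −0.47, under the minimum for a DEG. Gmpr went from 3.42 ± 0.19 to 2.17 ± 0.29 TPM (SD, n = 3 per group), and did not pass without the filter (limma adjusted p = 0.0505) or without pLV-Control replicate 2 (limma adjusted p = 0.0536). The enzymes that lead from IMP to GMP did not pass, with log2 fold changes of −0.07 for Impdh1, 0.05 for Impdh2 and −0.0028 for Gmps, but with centring Impdh2 and Gmps were higher and passed, at 0.14 and 0.090.

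**Figure D4:**
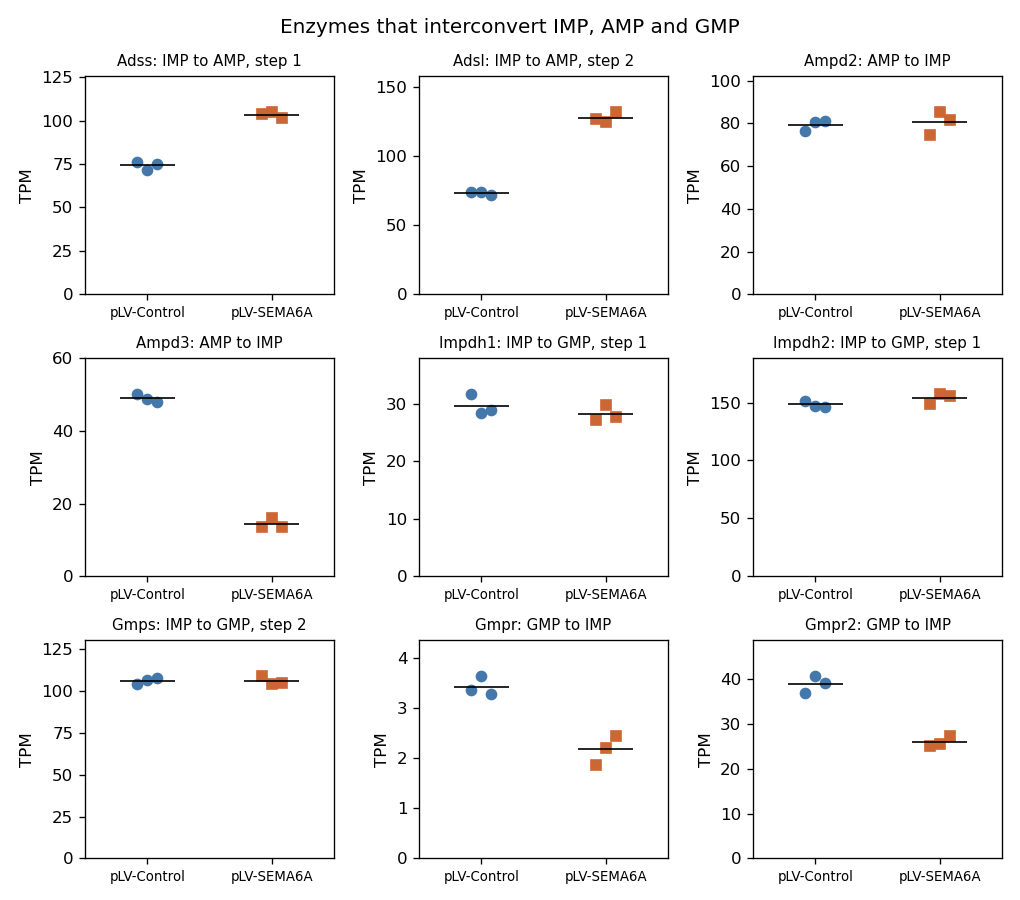
TPM of 9 enzymes that interconvert IMP, AMP and GMP, on axes from 0, with 1 symbol per library (3 per group) and a bar at the group mean. Adss and Adsl are higher in every pLV-SEMA6A library, Ampd3, Gmpr and Gmpr2 are lower, and Ampd2, Impdh1, Impdh2 and Gmps overlap.

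The list groups some genes with the cell-surface enzymes, and where their proteins lie in the cell was not measured. Among these genes, Cd38, which consumes NAD, was an upregulated DEG. Cd38 measured 0.94, 1.11 and 1.48 TPM in pLV-Control and 3.02, 2.78 and 3.0 TPM in pLV-SEMA6A. Its log2 fold change was 0.86 (SE 0.14, limma adjusted p = 0.00319). Enpp2, which encodes autotaxin and makes lysophosphatidic acid, fell from 2.65 ± 0.07 to 0.92 ± 0.31 TPM (SD, n = 3 per group), a log2 fold change of −0.94. Of the relatives of Entpd1 that were tested, chosen after their values were seen, Entpd5 rose by 0.26 on the log2 scale and Entpd4 did not pass. Entpd6 fell by 0.24 (limma adjusted p = 0.0457), a call lost in 5 of the 6 fits lacking 1 library and with centring (limma adjusted p = 0.162), and Entpd7 did not pass (limma adjusted p = 0.0517) except with centring, upper quartile scaling or limma without trend. Of the 4 adenosine receptors, only Adora2b exceeded a mean of 1 TPM. It went from 1.94 ± 0.25 to 1.12 ± 0.09 TPM (SD, n = 3 per group), a log2 fold change of −0.47 (limma adjusted p = 0.0342), and this call was lost in 5 of the 6 fits lacking 1 library, with centring (limma adjusted p = 0.0724) and when the replicate number was a block (limma adjusted p = 0.0913). Slc29a1, the equilibrative nucleoside transporter that carries adenosine across the plasma membrane, rose from 47.2 ± 3.0 to 63.7 ± 1.56 TPM (SD, n = 3 per group), a log2 fold change of 0.43 (limma adjusted p = 0.000872). Of the 3 nucleoside transporters tested, only Slc29a1 passed. Slc29a2 was at −0.22 (limma adjusted p = 0.46) and Slc29a3 at −0.24 (limma adjusted p = 0.307). Adora2b and these transporters were chosen after their values were seen.

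The remaining DEGs of the list were Samhd1, Nt5c3b, Tk2 and Prps1l3. Samhd1, which degrades deoxynucleoside triphosphates, fell from 57.5 ± 0.85 to 32.8 ± 2.76 TPM and the mitochondrial thymidine kinase Tk2 from 16.0 ± 2.95 to 8.36 ± 0.22 TPM, while the nucleotidase Nt5c3b rose from 33.3 ± 1.28 to 48.6 ± 4.22 TPM (SD, n = 3 per group). Prps1l3, a copy of the PRPP synthetase gene Prps1, had a log2 fold change of 0.52, did not pass without pLV-Control replicate 1 or 2 (limma adjusted p = 0.0513 and 0.0525), and has 30.8% of its 31-base stretches in other genes, mainly Prps1. Without pLV-SEMA6A replicate 3, Nt5c3b (0.47) and Prps1l3 (0.40) stayed under the minimum log2 fold change for a DEG. Of the 5 PRPP supply genes tested, 1 passed as higher, Prps1l3, and 3 passed as lower. The lower ones were Prps1 (log2 fold change −0.42), Prps2 (−0.36) and Prpsap1 (−0.47), none of them a DEG.

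**Figure D5:**
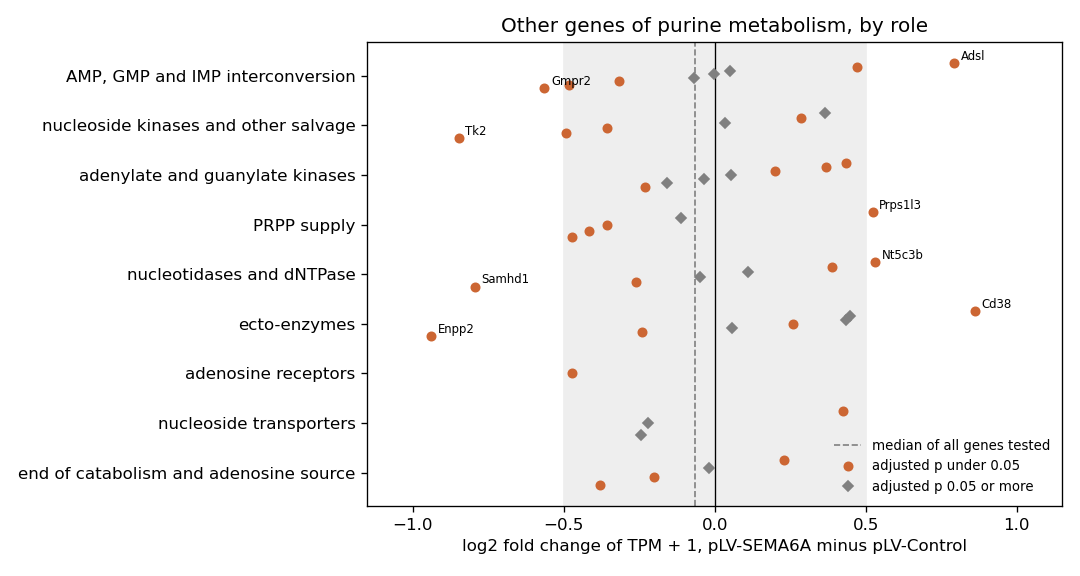
Log2 fold change of TPM + 1 (pLV-SEMA6A minus pLV-Control, 3 libraries each) for the 47 tested genes of the wider list, 1 point per gene, in rows by role. The grey band marks changes under 0.5, the dashed line the median of all genes tested, and the 8 DEGs are named. They lie on both sides, from −0.94 for Enpp2 to 0.86 for Cd38.

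Across the 6 libraries, the genes whose log2(TPM + 1) followed Ampd3 most closely were Oas1g (Pearson r = 0.9997), Tyk2 (0.9992) and Phf11d (0.9991), among 12510 genes tested. Their log2 fold changes were −3.67, −0.88 and −3.17. This is a description over 6 libraries in 2 groups, and 1756 genes had an r above 0.95 with Ampd3.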

How the data were processed

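Poly-A mRNA of 6 SL4 libraries was fragmented, reverse transcribed with random primers and sequenced (Illumina). Per gene and library, the authors deposited TPM with 2 decimals, and each group's mean TPM, which was not used. The submitters' processing notes list HISAT, Bowtie2 and RSEM and the build mm39. The test in the methods needs read counts, so limma 3.58.1 in R 4.3.3 was used with its trend option, group as the only term and a pseudocount of 1 TPM, over genes averaging 1 TPM or more. The replicate numbers come from the labels. After group means were subtracted, libraries with 1 number correlated at −0.06 on average (−0.08 to −0.02) across groups, so they were not treated as pairs. The limma step alone was tested on simulated data.

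The enzymes and the wider list were chosen with earlier results of these data known. Genes named are the enzymes, Sema6a, the DEGs of the wider list, up to 10 other genes sharing a role with a called enzyme and the 3 genes most like the enzyme that changed most. Any others were chosen after their values were seen. The share of 31-base stretches was counted over GENCODE M21 transcripts (GRCm38), which is not the submitters' build. Promoters are from RefSeq, and their coordinates apply to GRCm38.p6 only. With 3 libraries per group, no outlier test was run, and each library was left out in turn.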

Additional observations from a re-analysis of the deposited data

How the results depend on the processing

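Of the changes of single genes tested again under a pseudocount of 0.1 TPM, no filter, a mean of at least 10 TPM, centring on library medians, upper quartile scaling, the replicate block, limma without trend and leaving out each library, 632 kept direction and side of the threshold, 19 that did not pass in either fit changed sign, 44 lost the threshold and 6 gained it. Among the enzymes, the sign changed for Ampd2, to −0.0089 without pLV-Control replicate 1 and −0.024 without pLV-SEMA6A replicate 2. Gmps alone changed sign with a call, from −0.0028 to 0.090 with centring. Among the 10 enzymes, the calls that changed at an adjusted p under 0.05 were Adk and Pnp, as given above.

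The number of DEGs among the 10 enzymes was 2. It was 1 with a mean of at least 10 TPM, where Ada was not tested, 5 without a minimum fold change and 1 when the absolute log2 fold change had to exceed 1. It was 1 to 2 with a library left out. For the wider list, 8 DEGs became 30 without a minimum and 0 with a minimum of 1, since the largest absolute change was 0.94 (limma; 30 passed without it), and 7 to 10 with a library left out. Over all genes, 1987 DEGs became 1167 with a mean of at least 10 TPM, where 8184 genes were tested, 5959 without a minimum, 385 with a minimum of 1 and 1900 to 1975 with a library left out. With the replicate block, 2 of the enzymes, 8 of the wider list and 1924 of all genes were DEGs.

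TPM keeps no depth, so for Nt5e, Entpd1 and the receptors the precision behind values near or below 1 TPM is unknown. The same holds for Cd38 in pLV-Control and Enpp2 in pLV-SEMA6A. With a pseudocount of 0.1 TPM, the log2 fold change was 1.27 instead of 0.86 for Cd38 and −1.48 instead of −0.94 for Enpp2. Tests on read counts were not made.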
